A study of Mus musculus with 8 samples.

Results

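The cytosolic ribosomal protein genes encode the proteins of the large and small ribosomal subunits, and their mRNAs are among the most abundant of most cells. Each ribosome takes up about one copy of nearly every protein, so that these genes are kept in a close balance, and many of their mRNAs begin with a run of pyrimidines, the 5′ terminal oligopyrimidine (TOP) tract, through which mTOR and LARP1 control their translation. The mRNA level measured here does not report that translation. A few members have a second gene that is used in certain tissues, such as Rpl3l, the striated muscle counterpart of Rpl3, and Rpl39l, known from the testis as the counterpart of Rpl39.

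Members were chosen by symbol alone: Rpl or Rps with a number and an optional letter, Rplp0 to Rplp2, and Rpsa. Of 24532 genes in the deposited files 82 fitted, 46 of the large subunit, 30 of the small subunit and 6 with a symbol ending in l (Rpl3l, Rpl10l, Rpl32l, Rpl39l, Rps4l and Rps27l). The reference gene table held 84 such symbols, and Rpl6l and Rpl32p had no entry in the files.

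Poly(A) RNA had been sequenced from liver and subcutaneous fat (called adipose tissue below) of WT and MKRN1-null male C57BL/6 mice, in 2 libraries for each genotype and tissue. MKRN1 is an E3 ubiquitin ligase, and the null mice, backcrossed to C57BL/6, lack it in every tissue, so that liver and adipose tissue cannot be separated from the rest of the body as the place of an effect. All mice, WT included, had been fed a high-fat diet (HFD) from 6 weeks of age for 19 weeks and were 24 weeks old, per the labels. These label values do not add up exactly, and the paper's methods give a shorter HFD. The values were FPKM (fragments per kilobase of transcript, scaled to the mapped fragments). They are scaled by transcript length and depth, so that a comparison between genes rests on the annotated transcript lengths.

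The libraries matched their labels with 1 limit. Mkrn1 was at 9.42 and 10.1 FPKM in the WT livers and 2.86 and 2.21 in the MKRN1-null livers, and at 16.8 and 19.3 against 4.58 and 2.90 in adipose tissue. The albumin gene Alb was at 33787 to 42772 FPKM in the livers and 2.77 to 16.5 in adipose tissue, where the adipocyte gene Adipoq was at 1666 to 3824. MKRN1-null adipose replicate 2 stood apart: the 16 skeletal muscle marker genes summed to 21.7% of its FPKM, against 0.00935% to 0.0685% in the other 3 adipose libraries. Aligned bases ran from 5.72 to 9.24 gigabases per library. Several results that rest on that library are given with and without it. In whole tissue, fewer cells of a type and less RNA per cell cannot be told apart.

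The letters at the start of some members are shown because ribosomal protein mRNAs are known for the TOP tract, although the search found it at the annotated start of a minority of members. In RefSeq promoters of GRCm38.p6 (300 bases, 250 of them before the annotated start) 61 members had 73 entries. A C at the annotated start followed by at least 4 pyrimidines (C or T) was found in 14 of the 73 (19.2%), against 317 of 13148 promoters of genes tested in either tissue (2.41%), 823 of all 32851 promoters (2.51%) and 0 of 75 promoters of mitochondrial ribosomal protein genes. Among promoters of translation factors and other genes listed for a TOP tract it was found in 2 of 13 (15.4%). Below are 30 bases each, from 10 before the annotated start, with the pyrimidine run from the start in capitals. Each of these starts was also a transcript start in the deposited files.
Rps6, chr4:86857348-86857377, minus strand: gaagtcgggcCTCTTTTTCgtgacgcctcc
Rpl15, chr14:18270967-18270996, minus strand: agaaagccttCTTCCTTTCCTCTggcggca
Rpl28, chr7:4792955-4792984, plus strand: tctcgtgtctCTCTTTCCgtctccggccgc
Rpl35, chr2:39005112-39005141, minus strand: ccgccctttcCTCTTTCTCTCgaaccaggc
Rpl35a, chr16:33056472-33056501, plus strand: gcttgccttcCTCTTTCCgccatcttggcg
Rps27, chr3:90213629-90213658, minus strand: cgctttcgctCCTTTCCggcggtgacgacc
In Rpl27a the annotated start was a T within a longer pyrimidine run, which the search did not count, so the share depends on the annotated start. Of other motifs, searched on both strands of the same 300 bases, CCGGAAG was in 35.6% of the members' promoters against 16.6% of those of tested genes, AAGATGGCG in 6.85% against 2.81%, GGGCGG in 57.5% against 60.2%, and TATAAA in 9.59% against 7.89%. Promoters of mitochondrial ribosomal protein genes held CCGGAAG in 34.7% and AAGATGGCG in 10.7%, so neither motif was particular to the members. The members' entries with AAGATGGCG were those of Rpl13a, Rps27 and overlapping windows of Rpl35a, which can count the same copy more than once. TATAAA lay 15 to 40 bases before the start in 0 of the 73, against 1.41% of the tested genes' promoters.

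Another shared feature was the small nucleolar RNA genes (Snora and Snord, guides of ribosomal RNA modification) that many members carry inside their span. On the same strand 21 of the 82 members (25.6%) held at least 1, against 56 of 12913 other genes tested in either tissue (0.434%). Rpl13a held 4, Rpl23a 3, and Rpl3, Rps3 and Rps12 were among those with 2.

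Levels ranged widely among the members in every library. Leaving out the genes ending in l and 4 members that shared their locus with another symbol, 72 members were at 20.5 (Rps15a) to 748 FPKM (Rplp1) in WT liver 2, with a median of 224, and at 51.7 (Rps15a) to 1390 (Rpl41) in WT adipose 2, with a median of 450. Rplp1, an acidic protein of the ribosomal stalk, was the highest in 7 of the 8 libraries, and Rps15a the lowest in all 8. The only transcript of Rps15a in the files was 5134 bases long, against 468 for Rplp1. FPKM divides by that length, so the low place of Rps15a depends on the annotation. The order of levels was similar in both tissues, with Spearman's rho = 0.895 across 75 genes between the means of WT liver and WT adipose tissue, and 0.959 between the 2 WT livers across 79. Those are descriptions across genes, which are not replicates and share each library's depth. The summed FPKM of large subunit members was 1.456 to 1.505 times that of small subunit members in all 8 libraries.

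**Figure D1:**
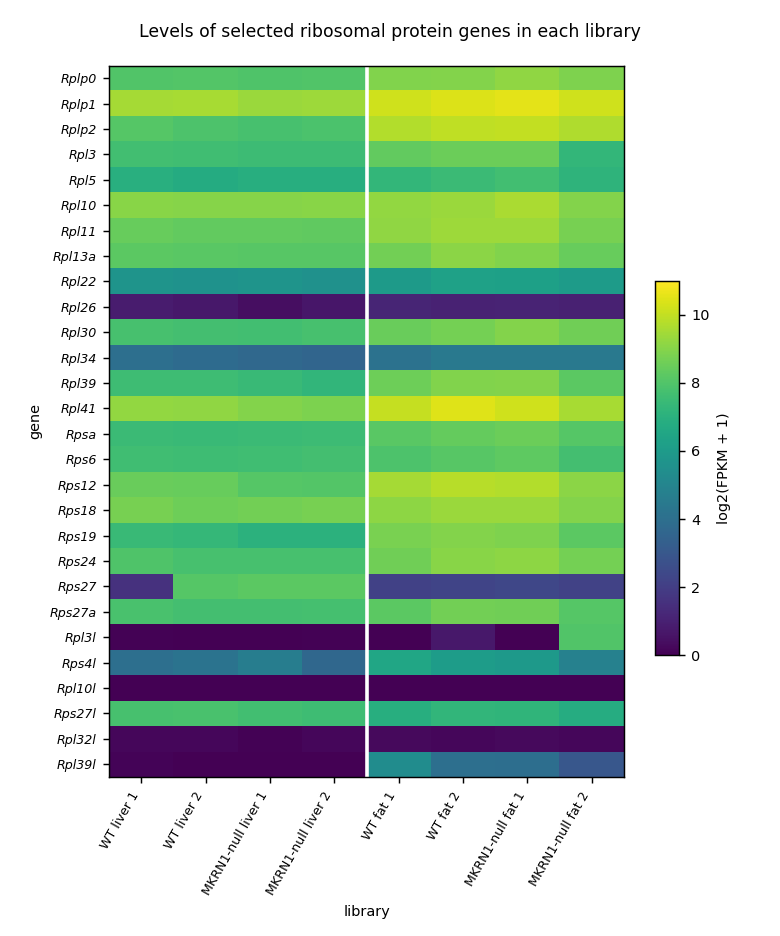
Heat map of log2(FPKM + 1) for the members taken for their role, those ending in l, those that share a locus and Rps12 (rows) in each of the 8 libraries (columns), with the 4 livers left of the white line and the 4 adipose libraries (fat) right of it. Most of these members are brighter in adipose tissue, Rps27 is dark in WT liver 1 and in all adipose libraries, and Rpl3l is bright only in MKRN1-null fat 2.

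In WT mice the members were higher in adipose tissue than in liver. Their share of the summed FPKM was 3.41% and 3.18% in the WT livers and 6.22% and 6.98% in WT adipose tissue, 2.001 times as much, with no overlap (exact permutation test, two-sided, p = 0.333, the smallest that 2 against 2 libraries can give). The ratio depends on a few very abundant genes in the sum. It was smaller with the 10 most abundant non-members of each tissue left out, at 4.45% and 4.18% against 7.02% and 7.91%. By limma on log2(FPKM + 1), 75 of 79 tested members were higher in adipose tissue and 1 was lower at an adjusted p under 0.05. Rpl39l and Rpl26 are among the 75 but passed the filter on low values only through adipose tissue. Their calls were thus favoured by the filter and carry no weight. Of all 12799 genes tested 62.3% were higher and 17.9% lower, so that most genes moved the same way. The median difference was 0.83 log2 units for the members and 0.59 for all genes. When libraries were first brought to a common scale by median-of-ratios scaling, which takes out the shift that most genes share, 29 members were higher (37.8% of all genes) and 4 lower (30.9% of all genes), with a median of 0.23 for the members and 0.09 for all genes. The direction of many single members therefore depended on the scale, and those that kept it under both are given first.

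Among the stalk proteins, Rplp2 was at 275 and 245 FPKM in the WT livers and at 859 and 995 in WT adipose tissue. The difference was 1.83 log2 units (standard error 0.12, adjusted p = 0.000155) as deposited and 1.23 after scaling (adjusted p = 0.000491). Its partner Rplp1 was at 738 and 748 against 1167 and 1382, a difference of 0.77 (adjusted p = 0.003) as deposited that did not pass after scaling (0.17, adjusted p = 0.219). Rplp0, the anchor of the stalk, went from 261 and 263 to 486 and 492 (0.90, adjusted p = 0.0004) and passed after scaling too (0.29, adjusted p = 0.0295).

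Of the small subunit, Rps19, a gene mutated in Diamond-Blackfan anaemia, was at 172 and 160 FPKM in the WT livers and 439 and 497 in WT adipose tissue. The difference was 1.49 as deposited and 0.88 after scaling (adjusted p = 0.0008). Rps12 (358 and 342 against 730 and 910) was also higher on both scales, by 1.22 as deposited and by 0.61 after scaling. The groups did not overlap for either of them.

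Of the large subunit, Rpl39, a small protein that lines the exit tunnel, was at 192 and 193 FPKM against 385 and 480, higher by 1.16 as deposited and 0.55 after scaling (adjusted p = 0.0095). Rpl41, the smallest ribosomal protein, was at 589 and 569 against 1062 and 1390, by 1.07 and 0.46 (adjusted p = 0.0317). Others passed only as deposited. Rpl3, at 201 and 194 against 326 and 366, differed by 0.80 and after scaling by 0.20 (adjusted p = 0.083), Rpl11, a regulator of the p53 pathway, by 0.86 and 0.26 (adjusted p = 0.0628), and Rpl13a by 0.68 and 0.07 (adjusted p = 0.663). Rpsa, the laminin receptor precursor, differed by 0.79 and 0.19 (adjusted p = 0.106), and Rps27a, made as a fusion with ubiquitin, by 0.67 and 0.07 (adjusted p = 0.679).

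Some members changed sign with the scale. Rps6, the substrate of S6 kinase, was at 198 and 189 FPKM in the WT livers and 239 and 282 in WT adipose tissue, a difference of 0.42 (adjusted p = 0.0194) as deposited and −0.18 (adjusted p = 0.133) after scaling. Rpl5 (0.53 and −0.07), Rpl22 (0.50 and −0.10) and Rps18 (0.58 and −0.03) passed as deposited and not after scaling. Rpl10 was at 522 and 513 against 602 and 652, higher by 0.27 (adjusted p = 0.044) as deposited and lower by 0.33 after scaling (−0.33, adjusted p = 0.0208), and with the mouse as a block the first of these did not pass (adjusted p = 0.0948). Rps2 was at 459 and 458 against 436 and 500, a difference of 0.03 as deposited (adjusted p = 0.828) and −0.58 after scaling (adjusted p = 0.004).

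Of the genes ending in l, Rps27l, a p53-induced relative of Rps27, was the 1 member lower in adipose tissue, at 225 and 231 FPKM in the WT livers and 119 and 150.0 in WT adipose tissue (−0.77 as deposited, adjusted p = 0.0043, and −1.37 after scaling, adjusted p = 0.000521). Rpl39l was at 0.08 and 0 FPKM in the WT livers and 39.8 and 15.3 in WT adipose tissue. It passed the filter on low values only through adipose tissue and 1 liver is listed at 0, so its level is a description with no fold or test. Rps4l, annotated as a transcribed pseudogene, was at 15.2 and 17.1 against 89.2 and 67.0 (2.19 as deposited and 1.61 after scaling, adjusted p = 0.0016). Rpl10l and Rpl32l stayed under 0.3 FPKM in every library. Reads of near-identical copies, processed pseudogenes included, can be shared between symbols, which makes the values of this group uncertain.

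For the other genes of the pathway the shift of all genes is the background, with 62.3% higher, 17.9% lower and a median of 0.59. Of 78 mitochondrial ribosomal protein genes 39 were higher and 10 lower (median 0.28), of 50 ribosome assembly genes 36 and 1 (median 0.50), of 18 translation factors and other TOP mRNAs 12 and 1 (0.44), of 16 translation regulators 12 and 1 (0.42), and of 7 ribosomal proteins outside the rule 5 and 1 (0.65). After scaling the medians were −0.30, −0.04, −0.16, −0.16 and 0.04. Eif4ebp1, an mTOR target that blocks cap-dependent translation, was at 47.2 and 42.1 FPKM in the WT livers and 165 and 176 in WT adipose tissue (1.91 as deposited and 1.31 after scaling). Rheb, the activator of mTOR, was at 21.9 and 20.1 against 59.8 and 61.97 (1.49 and 0.90), and Eef2k, the kinase of elongation factor 2, at 2.65 and 1.86 against 8.74 and 7.71 (1.51 and 1.03). Each of the 3 passed on both scales. Nap1l1, a histone chaperone whose mRNA has a TOP tract, differed by 2.53 and 1.94.

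In liver the loss of MKRN1 went with small differences in the members. The question of this comparison was whether genotype moves the ribosomal protein mRNAs under an HFD. As deposited 62 of 77 tested members were lower and 15 higher in MKRN1-null livers, with a median of −0.08 log2 units, against −0.17 for all 10822 genes tested. By limma 1 member (Rps12) was lower and 0 were higher at an adjusted p under 0.05, where 16.9% of all genes were lower and 2.51% higher. The number of members at an unadjusted p under 0.05 was 7, all lower (Rps12, Rps19, Rpl41, Rpl34, Rpl38, Rpl23a and Rps27l), which is 9.09% of the members where 39.5% of all genes passed in either direction. None reached an unadjusted p of 0.05 with an absolute log2 difference of 0.58, limits that the study used with another test and that 15.6% of all genes reached. In simulated liver data changes of 0.5 log2 units were called in 0% of the changed genes and changes of 1 unit in 54.5%. Differences as small as those of most members were thus hard to call in liver.

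The direction turned with the scale. The groups did not overlap for 44 members that were lower and 6 that were higher, where 57.5% and 11.8% of all genes did so, a share near the background for the first. After median-of-ratios scaling 66 members had a positive difference and 11 a negative one, the median was 0.11 against −0.01 for all genes, and the groups did not overlap for 54 that were higher (28.9% of all genes) and 5 that were lower (34.3% of all genes). No member passed after scaling, where 3.74% of all genes were higher and 7.92% lower. The number at an unadjusted p under 0.05 was again 7, but of other members, all higher (Rpl5, Rpl7, Rpl24, Rpl27a, Rpl35a, Rps6 and Rpsa), where 31% of all genes passed in either direction. After quantile normalization the median was −0.02, against 0.03 for all genes, and 0 passed, and in TPM it was −0.15 and Rps12 and Rps19 passed. The median of the members stood above that of all genes as deposited and after median-of-ratios scaling, and below it after quantile normalization.

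**Figure D2:**
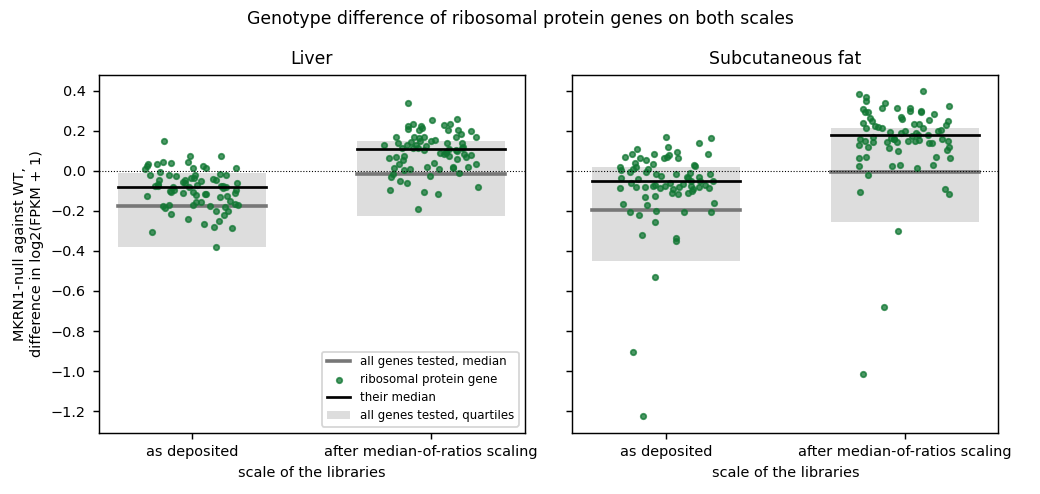
Difference of MKRN1-null from WT in log2(FPKM + 1) for each tested member except Rps27 (dots, with their median as a black line over all tested members), beside the quartiles (grey boxes) and median (grey lines) of all genes tested, as deposited and after median-of-ratios scaling. In liver the median of the members moves from −0.08 to 0.11 and in adipose tissue from −0.05 to 0.18, and on both scales it lies above the median of all genes.

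Rps12, whose gene hosts 2 small nucleolar RNA genes, had the lowest difference. It lies at chr10:23785183-23787209 (mm10) and was at 358 and 342 FPKM in the WT livers and 273 and 265 in the MKRN1-null livers. The groups did not overlap and differed by −0.38 log2 units (standard error 0.08, adjusted p = 0.041). The call ended after median-of-ratios scaling (−0.19, adjusted p = 0.191) and when any 1 of the 4 livers was left out (adjusted p = 0.0722 to 0.199), and it ended too with no filter on low values, with quantile normalization, with the replicate block and with all 8 libraries in 1 fit (adjusted p = 0.0544, 0.0712, 0.0864 and 0.471). Rps19 followed, at 172 and 160 against 134 and 135 (−0.30, adjusted p = 0.0632). Rpl41 was at 589 and 569 against 490.4 and 460 (−0.29, adjusted p = 0.0832) and Rpl38 at 260 and 242 against 213 and 204 (−0.27, adjusted p = 0.0883). Rpl39 was at 192 and 193 against 173 and 152 (−0.25, adjusted p = 0.127) and Rps27l at 225 and 231 against 203 and 189 (−0.22, adjusted p = 0.126). In each of these both MKRN1-null livers were below both WT livers as deposited, and after scaling the differences were −0.12, −0.10, −0.08, −0.06 and −0.03.

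At the other end was Rpl27a, at 160 and 163 FPKM in the WT livers and 181 and 179 in the MKRN1-null livers. The groups did not overlap, and the difference was 0.15 (adjusted p = 0.208) as deposited and 0.34 (adjusted p = 0.0625) after scaling. Rps6 was at 198 and 189 against 199 and 209 (0.07, adjusted p = 0.549), Rpl7 at 314 and 301 against 315 and 319 (0.05) and Rpl35a at 246 and 242 against 255 and 248 (0.04). For these 3 the groups did not overlap, but the gap between them was smaller than the distance between the 2 WT livers. The stalk proteins had both null livers below both WT livers as deposited, with differences of −0.05 for Rplp0, −0.17 for Rplp1 and −0.18 for Rplp2, and after scaling these were 0.14, 0.02 and 0.01. The remaining members named by role differed by −0.10 (Rpl3 and Rps24), −0.07 (Rpl11), −0.06 (Rpl13a), −0.04 (Rps27a), −0.01 (Rpl22), 0.02 (Rpsa), 0.01 (Rpl10), 0.04 (Rpl5) and 0.04 (Rps18), and none passed on either scale.

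The share of summed FPKM gave a measure within each library. It was 3.41% and 3.18% in the WT livers and 2.97% and 3.001% in the MKRN1-null livers, a difference of −0.314 percentage points (exact permutation test, two-sided, p = 0.333, the smallest possible). The groups did not overlap, and the SD was 0.165 in WT and 0.0245 in MKRN1-null livers. Without WT liver replicate 1 the difference was −0.198 points and without WT liver replicate 2 −0.431 points. A few very abundant genes take a large part of the sum in liver, and with the 10 most abundant non-members left out of it the shares were 4.45% and 4.18% against 3.903% and 3.94%.

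**Figure D3:**
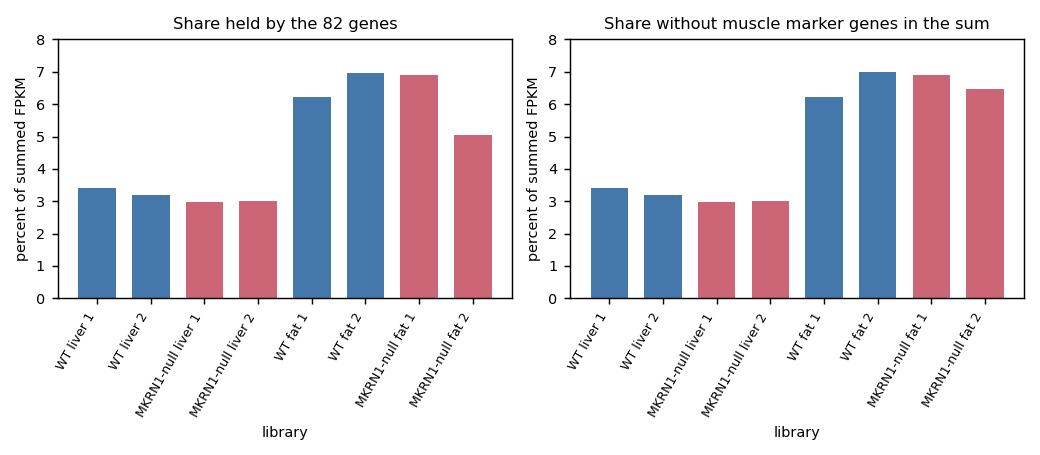
Percent of the summed FPKM of each library held by the 82 members, with all genes in the sum (left) and without the 16 skeletal muscle marker genes (right), for WT (blue) and MKRN1-null (red) libraries. MKRN1-null fat 2 rises from 5.06% to 6.46% when the muscle genes are left out, and the other 7 libraries hardly change.

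Of the other genes of the pathway few passed in liver, where 16.9% of all genes were lower. Of the mitochondrial ribosomal protein genes 6 of 78 were lower (median −0.17), of the assembly genes 2 of 50 (median −0.03), of the translation factors and other TOP mRNAs 1 of 18 (−0.02), and of the 16 regulators and 7 ribosomal proteins outside the rule 0 (−0.12 and −0.07). None was higher. Nap1l1 fell from 30.2 and 30.5 FPKM to 15.5 and 14.6 (−0.97, adjusted p = 0.01, and −0.79 after scaling, adjusted p = 0.017). Eif6, which keeps the large subunit from joining the small one, fell from 59.8 and 55.4 to 39.1 and 34.5 (−0.64, adjusted p = 0.023) and Nhp2, of the H/ACA small nucleolar RNA complex, from 25.5 and 26.0 to 17.5 and 18.5 (−0.50, adjusted p = 0.023). After scaling they did not pass (−0.45 and −0.31, adjusted p = 0.053 and 0.075). Mtor was at 10.9 and 7.93 against 5.83 and 4.96 (−0.69, adjusted p = 0.051). Of the mitochondrial genes Mrpl16 fell from 34.2 and 36.8 to 23.2 and 22.6 (−0.61, adjusted p = 0.018, and −0.43 after scaling, adjusted p = 0.048). Mrpl54 and Mrps18a fell by 0.55 and 0.42 on the log2 scale and did not pass after scaling. Macrophage markers moved with genotype in these livers, with a sum over 4 genes of 130 and 87.4 FPKM (WT) against 42.7 and 45.3 (null), as did 5 adipocyte markers (145 and 132 against 29.3 and 15.7), and their part in the values above was not tested.

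In adipose tissue no member passed by limma, where 0% of all 12164 genes passed and 785 genes (6.45%) and 0 members had an unadjusted p under 0.05. By the limits of the study 6.07% of all genes and 0 of the 79 tested members were called. The median difference was −0.05 for the members and −0.20 for all genes as deposited, and 0.18 and 0.00 after scaling, with 26 members above 0 as deposited and 72 after it. As deposited the groups did not overlap for 1 member that was higher (9.03% of all genes) and 3 that were lower (36.1% of all genes), and after scaling for 49 and 2 (21.8% and 25.1% of all genes). The median standard error of a member was 0.34 here, against 0.08 in liver, so that differences of the size seen in liver were not detectable. In simulated liver data changes of 0.5 log2 units were not called either. In simulated adipose data even changes of 2 log2 units were called in 0% of the changed genes.

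The 2 MKRN1-null adipose libraries lay on different sides of WT. Replicate 1 had 50 members above both WT libraries and 3 below, with a median difference from the WT mean of 0.13, and replicate 2, with the muscle genes, had 1 above and 61 below, with a median of −0.23. Over all genes tested the same medians were −0.0409 and −0.377, so that the median of all genes was below WT too in replicate 2. The adipocyte markers summed to 33346 and 37167 FPKM for WT against 39507 and 16040 for the null adipose libraries and the macrophage markers to 697 and 1050 against 831 and 245, both lowest in replicate 2. The red blood cell markers were highest in replicate 1 (2678 and 4441 against 11674 and 3924). Their part in these values was not tested. The share of summed FPKM was 6.22% and 6.98% in WT adipose tissue and 6.90% and 5.06% in MKRN1-null adipose tissue (exact permutation test, two-sided, p = 0.667). Without the muscle marker genes in the sum the shares were 6.22% and 6.98% against 6.90% and 6.46%, and the difference turned from −0.618 to 0.0809 percentage points.

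The mRNAs of Rpl3 and Rpl3l also stood apart in the library with the muscle genes. Rpl3 (chr15:80077781-80083406) was at 326 and 366 FPKM in WT adipose tissue and at 373 and 153 in MKRN1-null adipose tissue. Rpl3l (chr17:24727829-24736149) was at 0.0159 and 0.659 in WT and at 0 and 256 in MKRN1-null adipose tissue, and under 0.05 in each liver. In MKRN1-null adipose replicate 2 it made up 62.6% of the pair, and the sum of both genes was 409, against 326 to 373 in the other adipose libraries. The difference of Rpl3 between genotypes was −0.53 (standard error 0.51, adjusted p = 0.704). Without MKRN1-null replicate 1 it was −1.17 (adjusted p = 0.00685), a comparison that rests on the library with the muscle genes, and without replicate 2 no member passed.

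Rps24, a small subunit protein mutated in Diamond-Blackfan anaemia, differed between the WT tissues in the makeup of its transcripts as well as in its level. The level was higher in WT adipose tissue by 0.93 log2 units as deposited (limma, adjusted p = 0.0041) and by 0.33 after scaling (adjusted p = 0.0857). The gene lies at chr14:24490681-24496146 on the plus strand and has 3 transcripts in the files, of 837, 857 and 875 bases, which differ by 2 short exons before the last one. The bases after the last exon that they share are shown because each exon ends the reading frame at another place. They are from GENCODE transcripts on GRCm38, with the last 8 bases of the shared exon (chr14:24493486-24493493) in lower case and the following exon, or its first 22 bases, in capitals.
Last exon, from 24495775: gcaaaaagCCAAAGGAGTAGATCTGCGGTG
Exon of 20 bases, chr14:24495430-24495449: gcaaaaagTGAGTGGAGATTGGATACAG
Exon of 18 bases, chr14:24494052-24494069: gcaaaaagAAATGAAATACCTAGCAG
The stop codon is TAG as codon 4 of the last exon, TGA as codon 1 of the 20-base exon and TGA as codon 2 of the 18-base exon, so that the proteins differ only at their very end. The form with neither exon made up 87.0% and 89.6% of Rps24 FPKM in the WT livers and 43.0% and 41.5% in WT adipose tissue. The form with the 20-base exon alone made up 9.99% and 8.65% in the WT livers and 46.7% and 47.4% in WT adipose tissue. The form with both exons made up 2.97% and 1.78% in the WT livers and 10.3% and 11.1% in WT adipose tissue. The tissues did not overlap for any form, and no test was run on these shares.

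By genotype, the form with neither exon was at 92.4% and 91.9% in the MKRN1-null livers, above both WT livers. In adipose tissue MKRN1-null replicate 1 had 33.4%, 56.1% and 10.5% of the 3 forms, whereas replicate 2 had 13.9%, 40.2% and 45.8%. The form with both exons was thus at 189 FPKM in the library with the muscle genes and at 40.5, 57.6 and 58.2 in the other adipose libraries. The summed level of Rps24 did not follow this. In adipose tissue it was at 393 and 520.1 FPKM for WT against 553 and 414 for the null mice (0.08, adjusted p = 0.935).

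**Figure D4:**
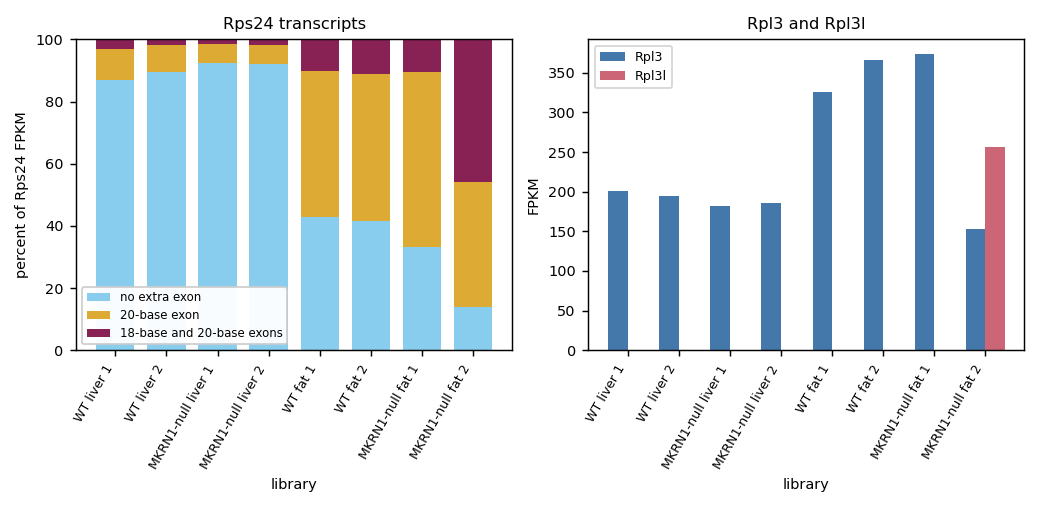
Left, percent of Rps24 FPKM in its 3 transcripts in each of the 8 libraries, named by the short exons they hold. Right, FPKM of Rpl3 and Rpl3l in the same libraries. The form without a short exon holds 87.0% to 92.4% in the livers and 13.9% to 43.0% in adipose tissue, and the form with both short exons (45.8%) and Rpl3l (256 FPKM) are high in MKRN1-null fat 2 alone.

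Of 14 members with several transcripts in the files, Rps27 moved more, with its 346-base transcript at 9.93% in WT liver 1, 99.1% to 99.4% in the other livers and 3.24% to 6.19% in adipose tissue, at a locus whose FPKM fell mostly on another symbol where that share was low. The shorter of 2 transcripts of Rps27a made up 65.5% to 73.3% of the gene in the livers and 76.9% to 81.7% in adipose tissue, with no overlap. Rpl22 had 84.2% to 89.4% of its FPKM in its 2203-base transcript in 7 libraries and 21.4% in WT adipose replicate 2, where 27.1% and 26.9% were in 2 others that held at most 2.54% elsewhere. Its summed level in that library, 78.3 FPKM, was close to the 75.6 of MKRN1-null adipose replicate 1.

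The remaining differences in adipose tissue were of genes at low levels or of a few members. Rpl39l was at 39.8 and 15.3 FPKM in the WT adipose libraries against 14.6 and 6.81 in the null ones (−1.23, standard error 0.58, adjusted p = 0.68) and Rps4l at 89.2 and 67.0 against 60.6 and 27.4 (−0.91, adjusted p = 0.68). Rps16 was at 408 and 453 against 404 and 287 (−0.33, adjusted p = 0.716). These are the 3 members whose groups did not overlap as deposited and were lower, and for each replicate 2 was the lowest of the 4. The 1 member that was higher with no overlap was Rpl34 (0.16, adjusted p = 0.772). Rpl41 was at 1062 and 1390 against 1193 and 762 (−0.35, adjusted p = 0.752) and Rps19 at 439 and 497 against 463 and 301 (−0.32, adjusted p = 0.74), with overlap. Replicate 1 alone differed from the WT mean by −0.73 (Rpl39l), −0.35 (Rps4l), −0.09 (Rps16), 0.16 (Rpl34), −0.03 (Rpl41) and −0.01 (Rps19). Rplp0 was at 486 and 492 against 570 and 473, Rps6 at 239 and 282 against 306 and 210.3, Rpl10 at 602 and 652 against 781 and 496, and Rps12 at 730 and 910 against 856 and 545. In each of these 4 the null libraries lay on both sides of a WT library. None of the other lists (mitochondrial ribosomal proteins, assembly, translation factors, regulators and ribosomal proteins outside the rule) had a member called in adipose tissue by either rule, with medians of 0.04, −0.08, 0.12, −0.07 and −0.11.

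The difference between the tissues in the effect of genotype was tested over all 8 libraries. Of 77 members 0 passed by limma, as 0% of all 9917 genes did, and 766 genes (7.72%) and 0 members had an unadjusted p under 0.05. The median of the members was 0.04, against 0.0052 for all genes, with a median standard error of 0.29. The sign of that median turned with single libraries, at −0.17 without MKRN1-null adipose replicate 1, 0.23 without replicate 2 and −0.08 without WT adipose replicate 1. Without MKRN1-null adipose replicate 1, Rpl3 passed (−1.07, adjusted p = 0.00524), which again rests on the library with the muscle genes.

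For 4 members the deposited files held another symbol on the same strand over at least 80% of the same span, and the FPKM fell on one or the other. Rps27 was at 1.93 FPKM in WT liver 1 and 269, 297 and 303 in the other livers (WT 2, MKRN1-null 1 and 2), whereas Rps27rt, placed at chr3:90212667-90213647, was at 320.0 in WT liver 1 and 1.98, 1.35 and 2.93 in the others. In adipose tissue Rps27 was at 3.37 to 4.03 and Rps27rt at 488 to 636. The sum of both was 322 and 271 in the WT livers and 298 and 306 in the MKRN1-null livers. The apparent difference of Rps27 by genotype in liver, 3.42, was 0.03 (adjusted p = 0.859) for the sum, and its difference between WT tissues turned from −2.63 (adjusted p = 0.294) to 0.92 (adjusted p = 0.00493).

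Rpl26 was at 0.31 to 1.22 FPKM in all libraries, while Gm15772 on its locus was at 337 to 677. The sum was higher in WT adipose tissue than in WT liver by 0.73 (adjusted p = 0.0038). Rpl34 was at 15.1 and 13.4 FPKM in the WT livers and 12.02 and 11.1 in the MKRN1-null livers, while Rpl34-ps1 was at 254 to 261, and the difference of the sum in liver was −0.03 in place of −0.28. Gm12191, at 9.70 to 22.7 FPKM, was the smaller part of the Rpl30 locus. RefSeq on GRCm38.p6 places these 4 symbols elsewhere, Rps27rt on chromosome 9, Rpl34-ps1 on chromosome 6, Gm15772 on chromosome 5 and Gm12191 on chromosome 11, so the positions in the files are not those of the current annotation. With the symbols of a locus summed, 1 member (Rps12) was called in liver and 0 in adipose tissue, as before.

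**Figure D5:**
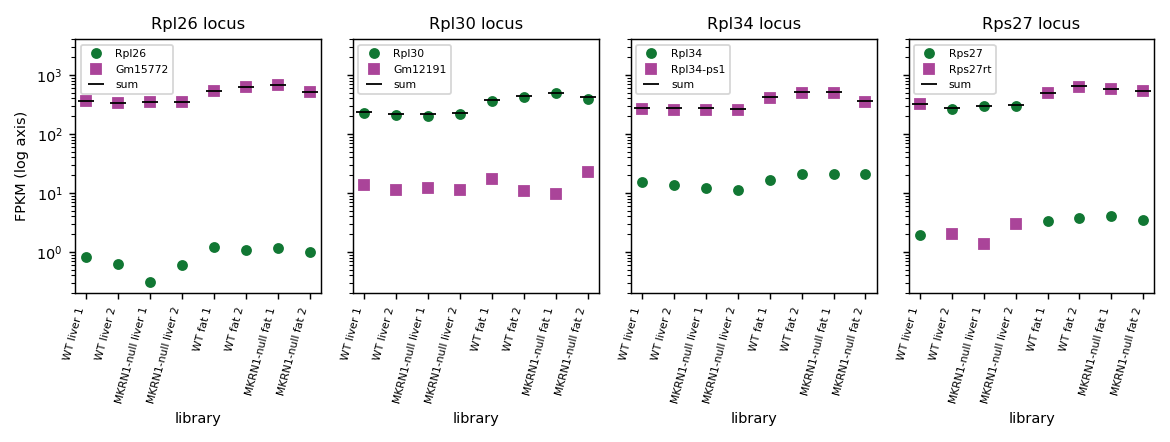
FPKM on a log axis in each of the 8 libraries for 4 members (circles), for the other symbol that the files place on the same locus (squares) and for the sum of both (short black lines). The sums stay between 215 and 678 in every panel, and at the Rps27 locus the FPKM changes from one symbol to the other between WT liver 1 and the other livers.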

How the data were processed

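Each library had 1 deposited file, in which the authors gave FPKM, TPM and coverage of 36780 transcripts of 24532 genes. Per the submitters' processing notes these were made with HISAT2, SAMtools (versions not given in the sources used here) and StringTie 1.3.3b on mm10, whereas the paper's methods describe other tools. The values are not counts, so count models were not used, and intervals that need counts are not given.

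Gene values were the sums of transcript FPKM, and symbols were matched by Entrez ID in a RefSeq table (70 IDs had no match and were kept). Genes with an FPKM of 1 or more in 2 or more of the 4 libraries compared were tested (in both tissues for the interaction). Tests were made with limma 3.58.1 in R 4.3.3 on log2(FPKM + 1), each tissue by itself (the 4 WT libraries for the tissue comparison, which shares its WT livers with the liver comparison, and all 8 for the interaction), with eBayes and a variance trend, with adjustment across every gene tested by the Benjamini-Hochberg method. A difference on this scale understates the change of low genes. Scaling by the median of ratios used genes at 1 FPKM or more in every library. The study's limits (0.05 and 0.58) were applied to limma's unadjusted p, not to the study's combined permutation p. Tables and figures were made with Python 3.11.15, pandas 2.3.3, numpy 2.4.6 and matplotlib 3.10.9, and the procedure was tested on simulated data. The 2 libraries of a group carry different mouse numbers in the file names, and p-values measure the spread between them.

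The members and lists were chosen with earlier results of these data known. Genes named are 20 members taken for their role, up to 5 members at each end of a comparison whose groups do not overlap, members past the adjusted threshold where they are 10 or fewer, and up to 3 of each other list with the largest change past either rule. Rps2, Rps15a, Rpl19, Rpl23a, Rpl24, Rpl26, Rpl30, Rpl10l, Rpl32l, the members whose promoters or small nucleolar RNA genes are named, and the marker genes were named after their values were seen. The alternatives were a pseudocount of 0.1, TPM, no filter, a filter at FPKM 5, median-of-ratios, quantile and muscle-free scaling, no trend, the replicate block, 1 fit over all 8 libraries, and leaving out each library. Muscle-free scaling brought the libraries to an equal FPKM sum over all genes except the muscle markers and the members. Summing the symbols of a locus was added after seeing the data. Protein sequences were not used here, and the values of some members that the rule names are not reported here. Same-numbered libraries of the 2 tissues carry the same mouse number in the deposited file names, so the block in comparisons of tissues stands for the mouse. The correlations of their deviations between the tissues were low, at 0.0598 in WT and 0.0918 in MKRN1-null mice. Within a tissue the numbers pair nothing, with correlations of their deviations of 0.00666 in liver and 0.113 in adipose tissue. There the replicate block uses up a degree of freedom with no pairing to remove. The 1 fit over all 8 libraries shares 1 variance per gene between tissues. The median standard error of a member was 0.08 in liver and 0.34 in adipose tissue when fitted apart.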

Additional observations from a re-analysis of the deposited data

Results flagged for a closer look

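Rpl34 moved in opposite directions in the 2 tissues, with both MKRN1-null livers below both WT livers and both MKRN1-null adipose libraries above both WT ones. Its FPKM was 15.1 and 13.4 in WT and 12.02 and 11.1 in MKRN1-null liver, and 16.7 and 20.7 in WT and 20.9 and 21.0 in MKRN1-null adipose tissue. The interaction of tissue and genotype was 0.44 log2 units (standard error 0.22) and did not pass (adjusted p = 0.717 by limma). For the sum with Rpl34-ps1, which holds most of the FPKM of the locus, the interaction was −0.04 (adjusted p = 0.991). Over all the members examined chance alone gives some such patterns.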

How the results depend on the processing

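In liver the 1 member called as lower became 2 in TPM and with muscle-free scaling. The count became 0 with no filter, median-of-ratios scaling, quantile normalization, the replicate block or 1 fit over all 8 libraries. In the livers the muscle markers held 0.00294% to 0.00328% of the FPKM. There muscle-free scaling in effect equalized the library sums of all genes but the members. Leaving out 1 library gave 0 to 1 calls, of which the 1 was Rps27 as higher without WT liver replicate 2, and Rps12 was lost each time. The median liver difference of −0.08 was −0.15 in TPM, 0.11 after median-of-ratios scaling, −0.0221 after quantile normalization and −0.15 with muscle-free scaling, and −0.13 to −0.0389 when 1 library was left out. In adipose tissue the count of 0 was 0 to 5 when 1 library was left out (5 lower without MKRN1-null replicate 1: Rpl3, Rpl19, Rps16, Rps19 and Rps4l, with 5245 of all genes lower), and the median of −0.05 was −0.15 in TPM, 0.02 with muscle-free scaling, 0.0035 after quantile normalization, 0.18 after median-of-ratios scaling and −0.23 to 0.13 when 1 library was left out. The interaction median of 0.04 was 0.18 with muscle-free scaling, −0.02 after quantile normalization and −0.17 to 0.23 when 1 library was left out, and its count of 0 was 0 to 1 (Rps27 without WT liver replicate 2, Rpl3 without MKRN1-null adipose replicate 1). The 76 members called between WT tissues, with Rpl39l and Rpl26 among them, became 33 after median-of-ratios scaling. The difference in the adipose share, −0.618 points, was 0.0809 without muscle marker genes in the sum and −1.54 to 0.304 when 1 library was left out. The causes were not tested.

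With the replicate number as a block 0 members were called in liver, 0 in adipose tissue, 0 for the interaction and 75 between WT tissues, and over all genes in adipose tissue the count went from 0 to 157 higher and 264 lower. Of single members, Rps6, Rpl5, Rpl10, Rpl22 and Rps18 changed sign between WT tissues after median-of-ratios scaling (−0.18, −0.0703, −0.33, −0.10 and −0.0276), and Rps27 did with its locus summed (0.92) and without WT liver replicate 2 (0.63, against −5.90 without WT liver replicate 1). Over 70 named values and 1024 repeats of them under alternatives, 895 kept their direction and their side of the threshold, 28 lost and 8 gained the call, and 86 that were not called changed sign. With 2 libraries per group the precision is limited, and the depth of each library limits that of members below a few FPKM.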
